A study of Homo sapiens with 402 samples.

Results

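Small nucleolar RNA host genes carry small nucleolar RNAs (snoRNAs) inside their introns, and their transcripts were followed here in MCF10A, a non-tumorigenic epithelial line from human breast, after 48 h with 1 of 21 chemicals. The genes were taken by name: every symbol made of SNHG and a number, the non-coding hosts GAS5, ZFAS1, DANCR and EPB41L4A-AS1, and the protein-coding hosts TAF1D, NOP56 and RACK1. Of the 34718 symbols listed in the 4 main plates, 34 fitted the names and 32 reached a mean of 0.5 CPM (counts per M counts of the library, with M for mega) in the controls of each of these plates. SNHG22 and SNHG27 were under that level. On the plate of DDE, which lists 15081 symbols, 31 of the names reached it and 30 could be tested, since SNHG31 did not pass the filter on low counts. All 32 host genes passed that filter on the other plates.

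Each chemical was given at 0.025, 0.25, 2.5 and 25 µM, with 4 libraries per dose unless stated, and compared with the controls of its own plate and solvent. Arsenic, cadmium, copper, lead and mercury shared 15 water controls. BPA, BPF, BPS, MPB and PPB shared 15 DMSO controls, and DCB_14, DCP_25, PCB153, PCB187 and thiram shared another 15. PFDA, PFNA, PFOS and phenanthrene shared 12 DMSO controls, and PFOA on the same plate had 4 water controls. DDE, labelled as dissolved in DMSO, had 8 controls that carry its plate barcode but are labelled as water and with another plate name. Chemicals are named as in the labels. All cells were wild-type MCF10A at the same passage, lysed in the well and read as plexWell libraries, in which each well and each plate has its own barcode. The labels call the wells biological replicates but name no separate cultures, so p-values measure the spread between wells, part of which may be technical. MPB and PPB at 0.025 µM had 3 libraries. Cadmium at 25 µM had 2, because a further library with that label carries the barcode of another plate and was kept out.

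The libraries compared held 1.43 to 25.8 M counts. On the 4 main plates the controls with the lower numbers in their labels had the higher median depth. On the metal plate they held 12.6 to 23.9 M against 1.93 to 5.40 M. Dosed replicates 1 and 2 were set with the former and 3 and 4 with the latter by number alone. No label links dosed replicates to control numbers, and whether they share a batch was not tested. The 4 arsenic libraries at 25 µM held 7.273 to 11.98 M, a depth between those of the control sets of their plate. Values within each set are given for host genes of arsenic and thiram whose call differed between the sets, and for some others. All 10 markers fixed for the line were present in the controls, with KRT5 at a mean of 1189 CPM on the metal plate. Of 10 markers of other cells, CD3E and PGR were at 0 in these controls, and DCN, a matrix proteoglycan gene, was highest at a mean of 85.01 CPM. ACTA2 was next at 9.436 CPM, and sums over these markers in the controls of the main plates were mostly DCN. In bulk libraries, fewer cells of a kind and less RNA per cell cannot be told apart.

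snoRNAs guide the chemical modification of ribosomal and other RNAs. Many are cut from introns of a longer host transcript, whose spliced exons are exported and, in several hosts, engage ribosomes at short reading frames. Such transcripts are removed by nonsense-mediated decay, which depends on translation, so their level can move with transcription, with translation and with decay. Many host genes also begin with a run of pyrimidines (a TOP start), which they share with ribosomal protein genes and which ties translation to growth signals. In the RefSeq annotation of GRCh38.p14, 29 of the 32 host genes contained at least 1 snoRNA gene, with a median of 2. SNHG14 held 84, GAS5 held 11, SNHG1 held 9 and TAF1D held 8, while SNHG10, SNHG20 and SNHG21 held none there. The files do not say whether reads were counted by strand, so reads of a host and of a gene that overlaps it cannot be told apart. Among others, this touches GAS5 with GAS5-AS1, ZFAS1 with ZNFX1, EPB41L4A-AS1 with EPB41L4A, SNHG3 with RCC1, SNHG4 with MATR3 and SNHG20 with SEC14L1. It also touches SNHG14 with SNRPN and UBE3A, SNHG12 with TRNAU1AP, SNHG7 with FAM69B, SNHG10 with GLRX5 and TAF1D with MED17. RACK1 and NOP56 share sequence with processed copies elsewhere in the genome.

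The first bases of 8 host genes, picked by their direction in thiram, are shown. Among them, genes of either direction had, or lacked, a pyrimidine run near the start. Each line gives 10 bases before and 40 bases from the annotated start, 5′ to 3′ on the strand of the gene. Capitals mark a run that begins with C, continues with at least 4 more C or T, and begins within 5 bases of the start. In DANCR the run begins 1 base after the start base, which is a G. ZFAS1, SNHG12, SNHG5, TAF1D and SNHG1 were higher in thiram at 25 µM and SNHG4, DANCR and SNHG3 were lower.
ZFAS1: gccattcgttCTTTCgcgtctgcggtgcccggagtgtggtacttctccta
SNHG12: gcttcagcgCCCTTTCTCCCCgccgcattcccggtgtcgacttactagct
SNHG5: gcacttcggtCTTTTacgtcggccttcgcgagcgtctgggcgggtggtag
TAF1D: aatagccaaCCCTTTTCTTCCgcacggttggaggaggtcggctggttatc
SNHG1: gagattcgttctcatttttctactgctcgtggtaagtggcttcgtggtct
SNHG4: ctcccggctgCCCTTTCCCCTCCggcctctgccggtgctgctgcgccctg
DANCR: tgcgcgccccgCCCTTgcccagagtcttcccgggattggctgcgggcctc
SNHG3: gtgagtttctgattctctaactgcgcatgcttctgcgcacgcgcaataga
On GRCh38.p14 these stretches are chr20:49278632-49278681 on the plus strand for ZFAS1, chr1:28581834-28581883 on the minus strand for SNHG12, and chr6:85678694-85678743 on the minus strand for SNHG5. They are chr11:93741456-93741505 on the minus strand for TAF1D, chr11:62855846-62855895 on the minus strand for SNHG1, and chr5:139274091-139274140 on the plus strand for SNHG4. They are chr4:52712384-52712433 on the plus strand for DANCR and chr1:28505933-28505982 on the plus strand for SNHG3. A RefSeq start window, from 250 bases before to 50 bases after the start, was found for 28 of the 32 host genes, and 15 of them (53.57%) had such a run. The share was 21.1% of all 35116 RefSeq start windows and 69.77% of 86 windows of ribosomal protein genes. A C at the start base itself followed by at least 4 C or T, whether or not the run also reaches upstream of it, was found in 9 host genes (32.14%), in 4.069% of all windows and in 56.98% of ribosomal protein windows. The palindromic ATF/CREB site was in none of the 28 windows and in 1.848% of all, and the palindromic E-box CACGTG was in 2 of them and in 7.256% of all. Of the 11 host genes higher in thiram, 10 had a window and 6 of these had a run; of the 6 lower ones, all 6 had a window and 4 had a run. Of the 23 host genes lower in arsenic, 21 had a window and 10 of these had a run.

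Levels were compared between genes per kilobase of annotated exon in the 15 water controls of the metal plate. RACK1, a protein of the small ribosomal subunit, was highest at 684 CPM per kilobase, followed by GAS5 at 168, DANCR at 115 and SNHG8 at 110. SNHG7, NOP56, SNHG16, ZFAS1 and SNHG3 followed each other within 35.4 to 31.3, and neighbours in that order do not differ beyond the spread of the wells. SNHG31 was lowest at 0.384. In CPM without length, RACK1 held 4098 ± 528 (SD, n = 15) and SNHG25, the lowest, 0.602 ± 0.647. Several host genes were lower in the higher-numbered controls of that plate: GAS5 had a mean of 448 CPM there against 752 in the lower-numbered ones, ZFAS1 53.3 against 85.9, and SNHG19 9.46 against 25.9. SNHG16 and SNHG29 differed little, with 176 against 168 CPM and 354 against 357.

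**Figure D1:**
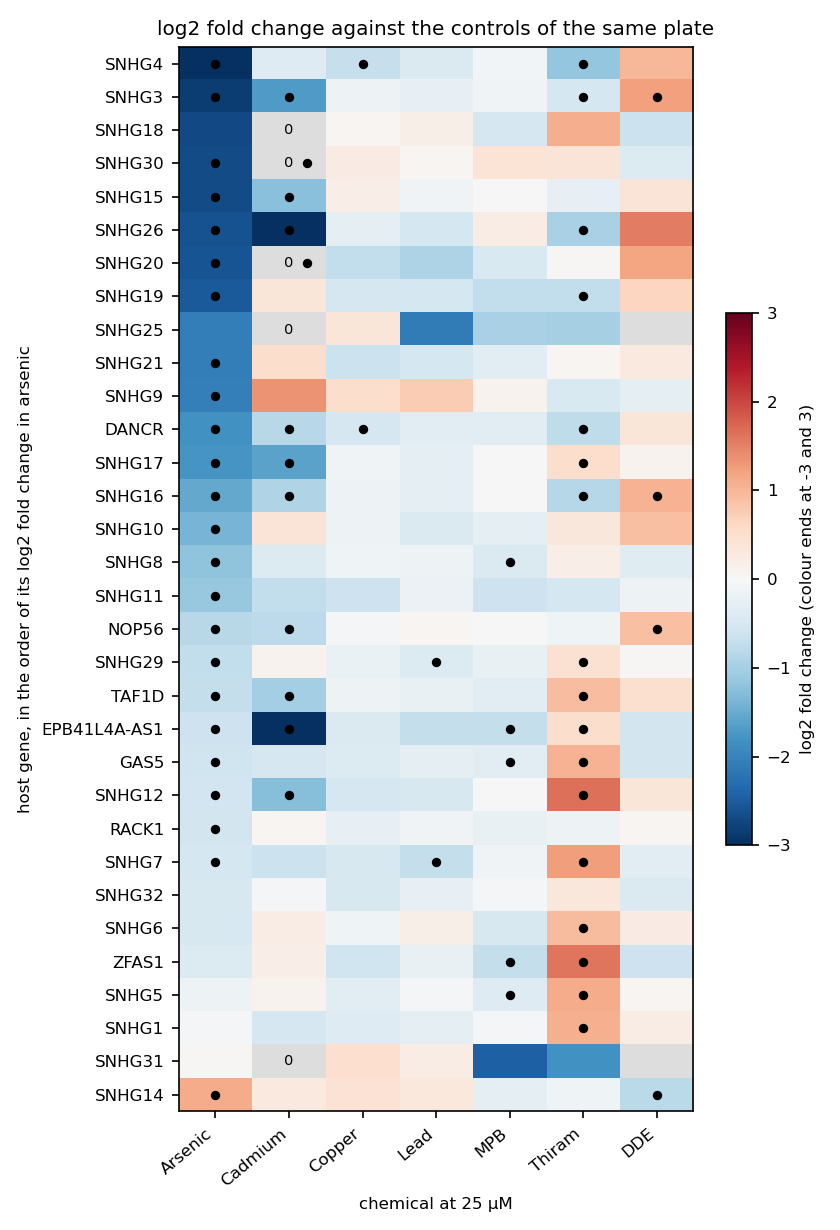
Colour gives the log2 fold change of each of 32 host genes (rows, in the order of arsenic) at 25 µM against the controls of the same plate in 7 chemicals (columns); dots mark an adjusted p under 0.05, grey cells were at 0 counts (marked 0) or not tested. The arsenic column is blue for 30 of 32 genes, and the thiram column holds 11 dotted genes above 0 and 6 below.

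Arsenic at 25 µM lowered most host genes. By edgeR's quasi-likelihood test with Benjamini-Hochberg adjustment, 23 of 32 were lower and 1 was higher, where 18.3% of the 24295 genes tested were lower and 21.4% were higher. The median log2 fold change was -1.17 for the host genes and 0.02 for all genes tested, and 30 of 32 host genes were below 0. In 12 host genes every arsenic library was below every control, which held for 7.91% of all genes, and in 1 every library was above, which held for 9.62%. With RLE scaling in place of TMM the median over all genes was 0.16, 19 host genes were lower and 1 was higher. Markers of the line moved as well, 8 of 10 lower and 2 higher with a median of -1.37. The summed markers of other cells stood at 27.4 to 60.3 CPM against 32.4 to 159 in the controls, where they were mostly DCN. Of 7 such markers tested, 1 was higher and 1 lower, with a median log2 fold change of 0.41. Mitochondrial genes took 5.252% to 7.678% of the arsenic libraries against 7.872% to 11.42% of the controls, without overlap. The part of these in the result was not tested.

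SNHG4, whose exons overlap the gene of the nuclear matrix protein MATR3, stood at 3.21, 3.59, 6.50 and 0.479 CPM in the 4 arsenic libraries, and at 12.3 to 41.5 CPM (median 29.7) in the controls. No arsenic library reached the lowest control, and the log2 fold change was -3.16 ± 0.27 (SE; adjusted p = 6.4e-18). SNHG3, host of 2 H/ACA snoRNAs and overlapping RCC1, stood at 13.8, 17.1, 17.3 and 22.5 CPM against 88.2 to 159 (median 135). The ranges lay far apart, with a log2 fold change of -2.86 ± 0.14 (adjusted p = 2.7e-33). SNHG30, a low transcript, had 1.61, 1.20, 0.130 and 0.798 CPM against 2.30 to 8.46 (median 6.77), and its log2 fold change was -2.68 ± 0.37 (adjusted p = 1.9e-09). These were the 3 largest falls among the called host genes.

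DANCR, host of the H/ACA snoRNA SNORA26, was the most abundant transcript per length to fall by more than 3-fold. Its 4 arsenic libraries held 77.9, 83.0, 73.6 and 68.2 CPM and the controls 151 to 314 (median 277), again without overlap. The log2 fold change was -1.81 ± 0.15 (adjusted p = 1.4e-18). SNHG16, which carries 3 C/D snoRNAs, had 61.5, 66.2, 55.8 and 54.9 CPM against 146 to 201 (median 170), a log2 fold change of -1.53 ± 0.10 (adjusted p = 2.2e-25). SNHG9, SNHG19, SNHG10, SNHG11, SNHG12 and SNHG7 were lower but overlapped their controls, from -2.52 ± 0.46 for SNHG19 (adjusted p = 3.4e-06) to -0.52 ± 0.15 for SNHG7 (adjusted p = 0.0044). The sets of libraries differed in several calls. SNHG12 was at -0.24 (adjusted p = 0.44) in the lower-numbered libraries and at -0.84 (adjusted p = 0.036) in the higher-numbered ones, and SNHG9 was not called in the former (adjusted p = 0.20). SNHG21, SNHG11 and SNHG7 passed in the lower-numbered libraries alone, with adjusted p of 0.13, 0.15 and 0.068 in the others. SNHG20 passed in both, at -4.26 and -1.82. SNHG15, SNHG17, SNHG20, SNHG21, SNHG26, SNHG8 and SNHG29 were likewise below all controls, with log2 fold changes from -2.68 for SNHG15 to -0.73 for SNHG29.

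All 3 protein-coding hosts were lower in arsenic. NOP56, a core protein of the C/D snoRNA particle, had 137, 117, 85.2 and 90.5 CPM against 132 to 221 (median 195), so 1 library reached the controls. Its log2 fold change was -0.82 ± 0.10 (adjusted p = 4.6e-11). TAF1D, a subunit of the factor that recruits RNA polymerase I, had 48.3, 78.9, 43.8 and 40.5 CPM against 61.9 to 105, with overlap and a log2 fold change of -0.72 ± 0.18 (adjusted p = 0.00049). RACK1 had 3026, 2747, 2770 and 2590 CPM against 3008 to 4820, with a log2 fold change of -0.56 ± 0.12 (adjusted p = 0.00010).

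GAS5, known for its accumulation in growth-arrested cells and for its many C/D snoRNAs, had 485, 430, 345 and 363 CPM against 376 to 827 (median 676). The ranges overlapped, and the log2 fold change was -0.59 ± 0.22 (adjusted p = 0.026). Within the lower-numbered libraries it was -0.68 (adjusted p = 1.3e-07) and within the higher-numbered ones -0.25 (adjusted p = 0.059). EPB41L4A-AS1, an antisense host of SNORA13, had a log2 fold change of -0.62 ± 0.25 pooled (adjusted p = 0.042), -0.75 in the lower-numbered libraries (adjusted p = 0.0017) and -0.17 in the higher-numbered ones (adjusted p = 0.68). ZFAS1, host of the SNORD12 family, was not called: it had 54.7, 59.4, 53.2 and 52.2 CPM inside the control range of 37.6 to 93.6, with a log2 fold change of -0.40 ± 0.24 (adjusted p = 0.18). It was at -0.55 (adjusted p = 0.0023) in the lower-numbered libraries and at 0.06 (adjusted p = 0.91) in the higher-numbered ones, and SNHG6 at -0.58 (adjusted p = 0.021) and 0.01. SNHG18, at 0 counts in both lower-numbered arsenic libraries, passed the test there (adjusted p = 0.010). SNHG1 and SNHG5 were also not called, at -0.03 ± 0.12 (adjusted p = 0.89) and -0.15 ± 0.19 (adjusted p = 0.56), and neither were SNHG6, SNHG18, SNHG25, SNHG31 and SNHG32.

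SNHG14, the long transcript of the imprinted region on chromosome 15 that carries the SNORD115 and SNORD116 clusters and runs antisense to UBE3A, went the other way. It had 47.6, 46.7, 37.3 and 45.4 CPM in arsenic and 4.58 to 28.9 CPM (median 23.1) in the controls. All arsenic libraries were above all controls, by 2.17-fold (log2 1.12 ± 0.25, adjusted p = 0.00012). Its rise was 0.98 on the log2 scale in the lower-numbered libraries and 1.60 in the higher-numbered ones. Of the 24 calls, 17 held in every alternative fit, SNHG14 and the falls of SNHG3, SNHG4, DANCR, NOP56, TAF1D and RACK1 among them.

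**Figure D2:**
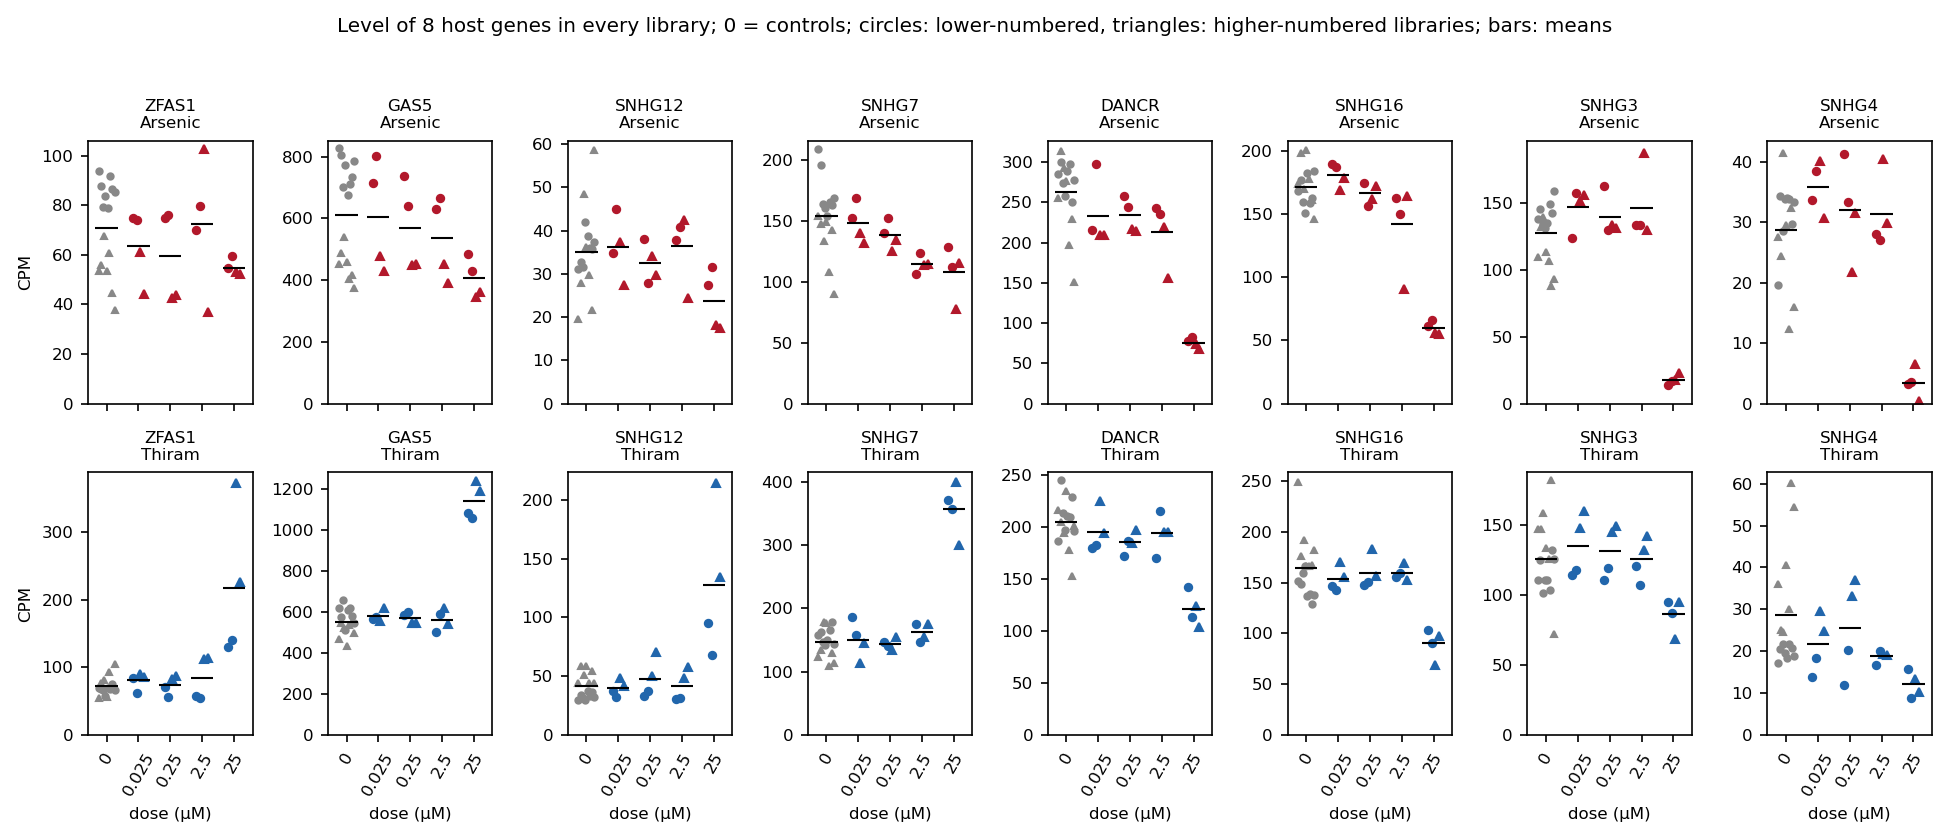
Each point is the level of a host gene in 1 library, in CPM (vertical axes start at 0), over dose in µM for arsenic (top, red) and thiram (bottom, blue); grey points at 0 are the 15 controls, circles are lower-numbered and triangles higher-numbered libraries, bars are means. At 25 µM, SNHG3 stands at 13.8 to 22.5 CPM in arsenic, and GAS5 at 1062 to 1243 CPM in thiram.

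Thiram at 25 µM split the host genes. Of 32, 11 were higher and 6 were lower, where 15% of the 21307 genes tested were higher and 15.8% lower. The median was 0.14 for the host genes and -0.11 for all genes tested. In 5 host genes (SNHG12, ZFAS1, SNHG7, SNHG5 and GAS5) every thiram library was above every control, as in 4.6% of all genes, and in 4 (SNHG4, SNHG26, SNHG16 and DANCR) every library was below, as in 3.45%. The thiram libraries were shallow, with 2.46 to 6.29 M counts. Their sum over the 10 markers of other cells was 4.14 to 47.6 CPM against 49.3 to 93.6 in the controls, where it was mostly DCN. The part of either in these values was not tested.

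SNHG12, host of 4 snoRNAs, had 95.4, 68.3, 214 and 134 CPM in thiram and 29.7 to 58.6 CPM (median 37.7) in the controls. All 4 were above the controls, by 3.16-fold (log2 1.66 ± 0.24, adjusted p = 1.8e-08). ZFAS1 had 130, 140, 373 and 227 CPM against 55.3 to 105 (median 69.8), a 3.03-fold rise (log2 1.60 ± 0.16, adjusted p = 2.5e-14). The rise of ZFAS1 differed in size between the sets, 0.98 on the log2 scale in the lower-numbered libraries and 1.97 in the higher-numbered ones, and passed the test in each. SNHG7, host of 2 H/ACA snoRNAs, had 371, 358, 401 and 300 CPM against 109 to 179 (median 148), with a log2 fold change of 1.27 ± 0.09 (adjusted p = 1.7e-23).

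GAS5 had 1085, 1062, 1243 and 1192 CPM against 437 to 661 (median 546). The lowest thiram library was well above the highest control, by a mean of 2.07-fold (log2 1.05 ± 0.08, adjusted p = 2.2e-21), and both sets passed the test. SNHG5 had 288, 318, 508 and 499 CPM against 128 to 236, and SNHG1 had 107, 142, 276 and 224 CPM against 55.5 to 143. Their log2 fold changes were 1.12 ± 0.13 (adjusted p = 2.4e-12) and 1.08 ± 0.22 (adjusted p = 2.7e-05), and only SNHG1 overlapped its controls. SNHG6, TAF1D, SNHG17, EPB41L4A-AS1 and SNHG29 were higher with overlap. TAF1D, the 1 protein-coding host that rose, had 115, 125, 230 and 192 CPM against 54.1 to 123 (log2 0.92 ± 0.13, adjusted p = 1.9e-08). EPB41L4A-AS1 had 1 library above its controls, with 37.8, 41.5, 42.7 and 88.6 CPM against 27.5 to 44.5 (log2 0.52 ± 0.18, adjusted p = 0.016). SNHG6 (log2 0.95 ± 0.23, adjusted p = 0.00046), SNHG29 (log2 0.46 ± 0.10, adjusted p = 0.00026) and SNHG17 (log2 0.53 ± 0.21, adjusted p = 0.046) complete the genes that rose. SNHG5 was at 0.70 and 1.46 on the log2 scale in the lower-numbered and the higher-numbered libraries, and TAF1D at 0.49 and 1.23. SNHG6 was at 0.48 (adjusted p = 0.23) and 1.24, EPB41L4A-AS1 at 0.21 (adjusted p = 0.60) and 0.74, and SNHG17 passed in neither set alone (adjusted p = 0.44 and 0.079).

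All 6 host genes lower in thiram were also lower in arsenic, which lowered 23 of the 32. Of those higher in thiram, SNHG12, SNHG7, GAS5, TAF1D, SNHG17, EPB41L4A-AS1 and SNHG29 were lower in arsenic too. SNHG4 had 15.8, 8.78, 13.4 and 10.4 CPM against 17.3 to 60.1 (median 21.8), with a log2 fold change of -1.17 ± 0.32 (adjusted p = 0.0028). SNHG26 had 19.9, 20.6, 13.98 and 10.8 CPM against 24.9 to 52.2 (log2 -0.98 ± 0.23, adjusted p = 0.00026), and SNHG16 had 104, 90.6, 69.3 and 97.3 CPM against 129 to 250 (log2 -0.85 ± 0.13, adjusted p = 8.7e-08). DANCR had 142, 114, 125 and 104 CPM against 153 to 246, with a log2 fold change of -0.75 ± 0.10 (adjusted p = 2.0e-09). In all of these the thiram libraries lay below the controls. SNHG3 (log2 -0.53 ± 0.15, adjusted p = 0.0029) and SNHG19 (log2 -0.75 ± 0.27, adjusted p = 0.025) were lower with overlap. NOP56 and RACK1 were not called, at -0.13 ± 0.11 (adjusted p = 0.41) and -0.15 ± 0.07 (adjusted p = 0.099). SNHG19 rested on the lower-numbered libraries, at -1.61 against -0.10 (adjusted p = 0.98) in the others. SNHG26 was at -0.55 (adjusted p = 0.13) and -1.60, and SNHG4 at -0.70 (adjusted p = 0.15) and -1.66. SNHG11, not called in the pooled fit, was at -1.04 (adjusted p = 0.020) in the lower-numbered libraries and at 0.37 in the others. Of the 17 calls, 11 held in every alternative fit, and SNHG4, SNHG26, SNHG19, SNHG6, SNHG17 and EPB41L4A-AS1 were lost in at least 1.

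**Figure D3:**
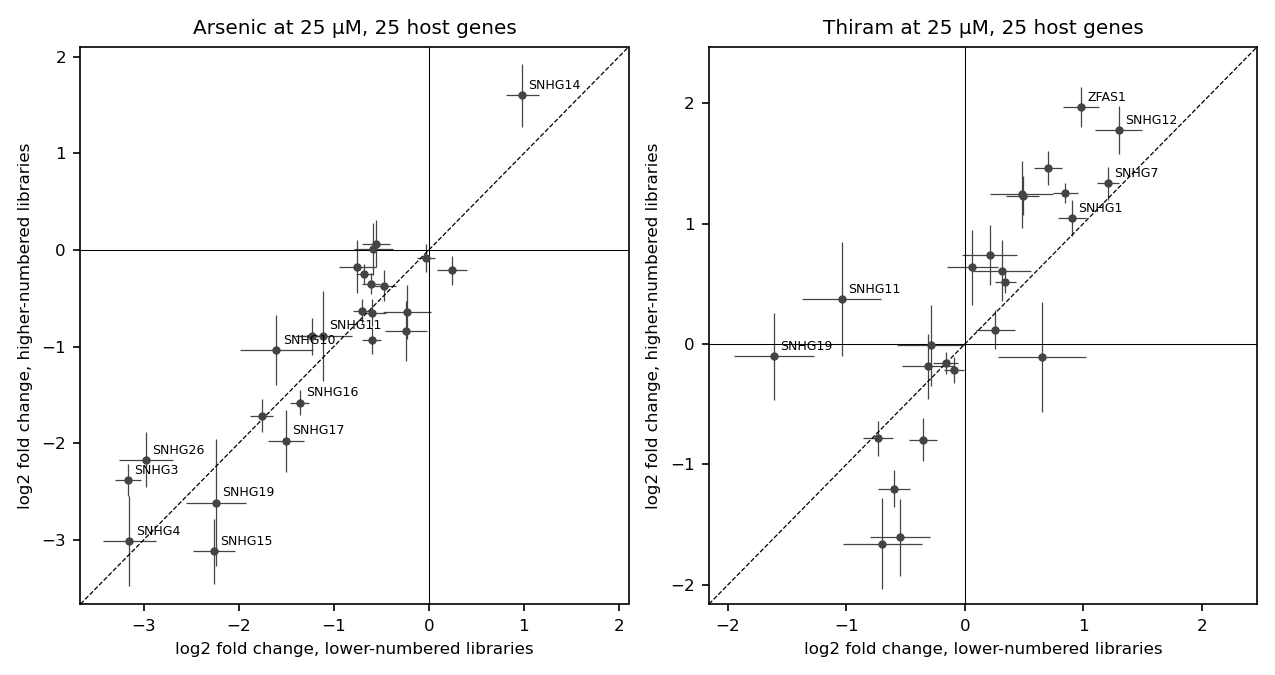
Log2 fold change at 25 µM within the lower-numbered libraries (horizontal) and within the higher-numbered ones (vertical) for the 25 host genes with at least 10 CPM in the controls of the metal plate; bars are standard errors and the dashed line is equality. SNHG14 lies at 0.98 and 1.60 in arsenic and ZFAS1 at 0.98 and 1.97 in thiram. Of all 32 host genes, 17 and 11 passed the test in both sets with the same sign. SNHG20 and SNHG30, among the 17 in arsenic, are not plotted.

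Cadmium at 25 µM lowered 12 of 32 host genes and raised none, where 14.3% of all genes tested were lower and 11.2% higher. The 2 libraries held 1.43 and 1.46 M counts, and mitochondrial genes took 39.34% to 46.83% of them against 7.872% to 11.42% in the controls; the part of this in the falls was not tested. The median over all genes tested was -1.39 on the log2 scale, -1.26 with RLE scaling and 0.07 with DESeq2, and the median of the 32 host genes was -0.70. Over the 27 host genes with any count in cadmium it was -0.50. The 12 called host genes stayed below 0 in each of these fits. RLE and DESeq2 gave close values for SNHG3 (-1.55 and -1.54) but not for genes at 0 counts, such as SNHG31 (-6.40 and -1.49). SNHG3 had 52.7 and 25.2 CPM against 88.2 to 159 (log2 -1.71 ± 0.25, adjusted p = 5.1e-08), and it was the 1 call that held in every alternative. EPB41L4A-AS1 had 5.02 and 2.80 CPM against 9.17 to 51.7 (log2 -3.15 ± 0.76, adjusted p = 0.00064). SNHG26 had 1 count over both libraries, 47.7-fold under its controls with a 95% exact counting interval of 8.56-fold to 1884-fold.

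SNHG18, SNHG20, SNHG25, SNHG30 and SNHG31 had 0 counts in both cadmium libraries. The limit used was 3 counts over the group, about the upper 95% counting limit for 0 counts. Against it SNHG20 was at least 4.67-fold lower and SNHG30 at least 2.93-fold lower, and counting error alone is covered. For SNHG18, SNHG25 and SNHG31 the controls were themselves at or under that limit. DANCR (96.7 and 204 CPM) and NOP56 (141 and 78.4 CPM) overlapped their controls, with log2 fold changes of -0.83 ± 0.23 (adjusted p = 0.0031) and -0.78 ± 0.18 (adjusted p = 0.00030). GAS5 (362 and 503 CPM) and RACK1 (4164 and 4409 CPM) were not called, with log2 fold changes of -0.50 ± 0.31 and 0.06 ± 0.16. Without the first cadmium library 7 host genes were lower, and with the library of the other barcode added 6 were.

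The difference between arsenic and cadmium at 25 µM was tested directly. Arsenic was lower in 10 host genes, where 7.57% of all genes tested were lower, and higher in EPB41L4A-AS1 alone, where 11.2% of all genes were higher. SNHG19 (log2 -2.88 ± 0.80, adjusted p = 0.0049) and SNHG4 (log2 -2.77 ± 0.50, adjusted p = 8.5e-06) were much lower in arsenic than in cadmium. SNHG29 (log2 -0.84 ± 0.18), RACK1 (log2 -0.62 ± 0.18), DANCR (log2 -0.98 ± 0.25) and SNHG3 (log2 -1.15 ± 0.31) were lower by less. EPB41L4A-AS1 was higher in arsenic by 2.54 ± 0.82 on the log2 scale (adjusted p = 0.018). The median in this contrast was 0.81 for all genes and -0.31 for the host genes. With 1 common dispersion in place of a trend, an alternative chosen after seeing the data, 4 host genes differed.

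Copper and lead, on the same plate, moved few host genes. Copper at 25 µM lowered SNHG4 and DANCR, 2 of 32, where 1.27% of genes were lower and 1.78% higher. DANCR had 148, 162, 241 and 195 CPM against 151 to 314 (log2 -0.50 ± 0.13, adjusted p = 0.016) and SNHG4 12.99, 18.04, 20.6 and 20.2 CPM against 12.3 to 41.5 (log2 -0.70 ± 0.21, adjusted p = 0.036). Both overlapped their controls, neither was called without replicate 1 or without replicate 2, and 1 was called without replicate 4. Within the lower-numbered libraries 9 host genes were called and within the higher-numbered libraries no host gene was called. Lead lowered SNHG7 and SNHG29, 2 of 32, where 0.881% of genes were lower and 1.4% higher. SNHG7 had 106, 101, 78.5 and 96.0 CPM against 89.8 to 210 (log2 -0.71 ± 0.15, adjusted p = 0.0022), and SNHG29 had 275, 271, 236 and 287 CPM, all under the control range of 294 to 404 (log2 -0.41 ± 0.11, adjusted p = 0.022). The lower-numbered and the higher-numbered lead libraries each called both genes. SNHG7 held in every alternative, while SNHG29 was lost in 3 alternatives, among them without replicate 2 and without replicate 3.

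MPB at 25 µM lowered 5 of 32 host genes, where 0.673% of 22301 genes were lower and 0.291% higher. Mitochondrial genes took 6.118% to 7.279% of the MPB libraries, below the 7.321% to 8.948% of every control; the part of this in the falls was not tested. ZFAS1 had 35.3, 40.96, 44.2 and 44.2 CPM against 44.1 to 80.4 (median 69.8), at the edge of the controls and with a log2 fold change of -0.71 ± 0.13 (adjusted p = 0.0012). EPB41L4A-AS1 had 15.2, 22.02, 31.7 and 16.5 CPM against 22.6 to 45.8 (log2 -0.72 ± 0.19, adjusted p = 0.032), and SNHG8 had 66.7, 64.7, 79.1 and 56.4 CPM, all below 79.7 to 103 (log2 -0.44 ± 0.12, adjusted p = 0.040). GAS5 (log2 -0.33 ± 0.08, adjusted p = 0.029) and SNHG5 (log2 -0.39 ± 0.10, adjusted p = 0.031) fell with overlap. Without replicate 1 none of the 5 was called, without replicate 2 there was 1 call and without replicate 4 there were 2, and the higher-numbered libraries alone called none. Of 85 ribosomal protein genes, 48 were lower in MPB and none higher, with a median of -0.37. Against the same controls their medians were -0.23 in BPA, -0.14 in BPF, -0.04 in BPS and -0.24 in PPB, with none called. The host gene medians were -0.27 in MPB, -0.11 in BPA, -0.08 in BPF, -0.04 in BPS and -0.15 in PPB.

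DDE at 25 µM raised 3 of 30 host genes and lowered 1, where 1.67% of 13921 genes were higher and 2.2% lower. SNHG16 had 143, 165, 166 and 185 CPM against 35.2 to 124 (median 92.2), and SNHG3 had 70.0, 92.3, 104 and 91.2 CPM against 12.4 to 57.99 (median 44.4). In both every DDE library was above every control, with log2 fold changes of 1.04 ± 0.25 (adjusted p = 0.035) and 1.23 ± 0.33 (adjusted p = 0.041). NOP56 had 205, 261, 293 and 324 CPM against 62.9 to 215 (log2 0.91 ± 0.25, adjusted p = 0.043), and SNHG14 had 26.6, 19, 14.8 and 19.9 CPM against 24.0 to 55.3 (log2 -0.82 ± 0.22, adjusted p = 0.041). Controls numbered 9, 15 and 16 held 18.5, 24.9 and 12.4 CPM of SNHG3, and the other controls 41.9 to 57.99 CPM. For SNHG16 these were 44.2, 46.7 and 35.2 CPM against 91.0 to 124 CPM. At an unadjusted p under 0.05 edgeR placed 2289, 3328 and 2900 genes at 0.025, 0.25 and 2.5 µM, and 3624 at 25 µM. The part of the controls in the calls was not tested. Solvent and chemical cannot be told apart here, since the controls are labelled as water. Without the second or the third DDE library none of these calls remained, and without the fourth there was 1.

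The other 14 chemicals at 25 µM gave 1 call among 448 host gene tests, where 0.0166% of all tests were called. It was ZFAS1 in PPB, with 44.7, 40.0, 34.6 and 44.2 CPM against 44.1 to 80.4 and a log2 fold change of -0.71 ± 0.13 (adjusted p = 0.011). It was lost when any dosed replicate was left out. The fold changes of ZFAS1 in MPB and PPB were both -0.71 on the log2 scale, with the same 15 controls behind them. At an unadjusted p under 0.05 stood 46 of the 448 tests (10.27%) and 5.614% of all gene tests. PFOA held 12 of these 46, with a host gene median of -0.35 against 0.01 for all genes, and none was called. At 0.025, 0.25 and 2.5 µM the host gene medians in PFOA were -0.29, -0.31 and -0.28. The 4 PFOA libraries of each dose were set against 4 water controls alone. Against the DMSO controls of the plate, these had a host gene median of 0.25 on the log2 scale. The part of the controls in the PFOA values was not tested.

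At the lower doses few host genes passed the test. At 2.5 µM 1 of 670 tests was called, where 0.25% of all were: SNHG5 in BPA had 141, 129, 147 and 147 CPM against 143 to 252, with a log2 fold change of -0.45 ± 0.10 (adjusted p = 0.020). At 0.25 µM and at 0.025 µM edgeR called none, where 0.0597% and 0.00488% of all tests were called. At an unadjusted p under 0.05 there were 79 and 83 of 670, 11.79% and 12.39%, against 6.755% and 5.965% of all genes, and DESeq2 called 5 and 1. The counts at these doses depended on which libraries were fitted. The lower-numbered libraries alone gave 9, 14 and 25 calls at 2.5, 0.25 and 0.025 µM, and the higher-numbered ones 14, 1 and 4. At 2.5 µM a common dispersion, a library-number term, DESeq2 and no filter gave 5 to 9, and leaving out 1 replicate gave 0 to 8. Arsenic called 466 of all genes at 2.5 µM and no host gene.

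**Figure D4:**
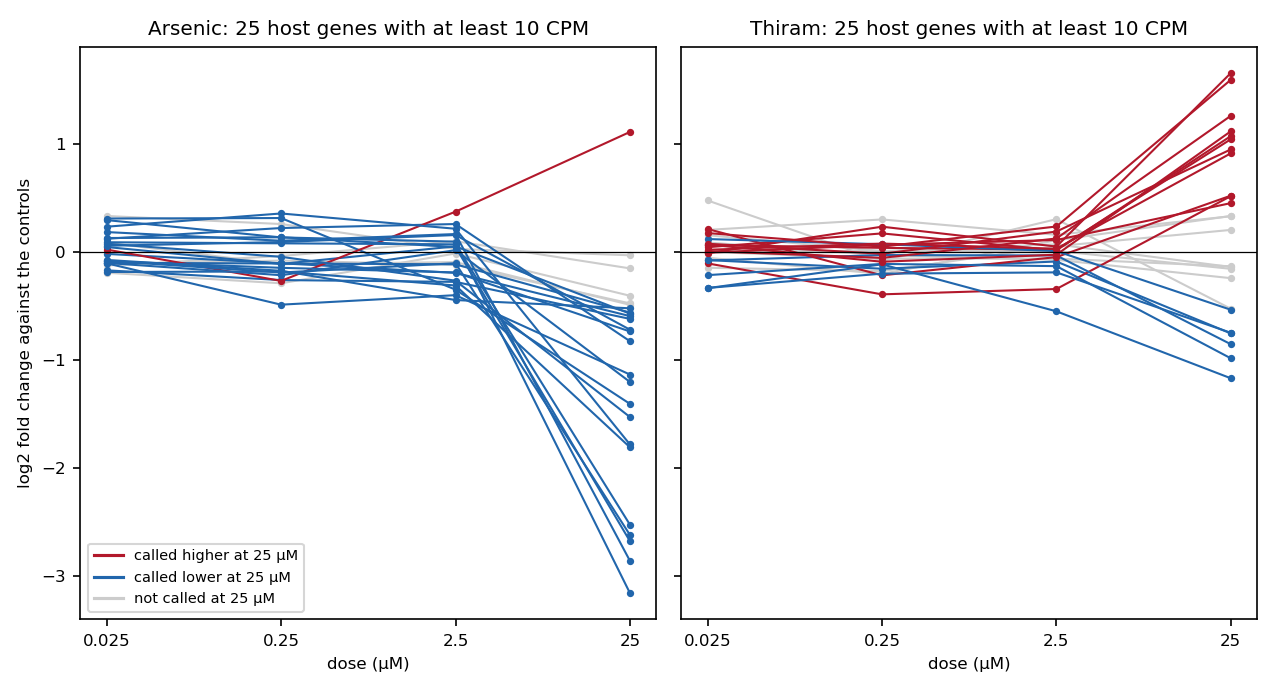
Log2 fold change against the controls over dose in µM (steps of 10-fold) for the 25 host genes with at least 10 CPM in the controls of the metal plate, in arsenic (left) and thiram (right); red and blue lines were called higher and lower at 25 µM and grey lines were not called. The lines part at 25 µM, down to -3.16 for SNHG4 in arsenic and up to 1.66 for SNHG12 in thiram.

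A linear trend over the 4 doses, which does not use the controls, was tested as well. In arsenic 19 host genes fell and 1 rose with dose, where 15.4% of genes fell and 11% rose. SNHG4 fell by 1.04 ± 0.09 and SNHG3 by 0.91 ± 0.05 on the log2 scale per 10-fold dose, and SNHG14 rose by 0.39 ± 0.11. These are slopes of a line, and below 25 µM edgeR called no host gene in arsenic, thiram or cadmium. The arsenic host gene median was -0.07, -0.09 and 0.004 at 0.025, 0.25 and 2.5 µM, against -1.17 at 25 µM. In thiram 10 rose and 4 fell, where 8.28% of genes rose and 11.8% fell, from 0.48 ± 0.10 for SNHG12 to -0.23 ± 0.05 for SNHG16 per 10-fold dose. Without replicate 3 the thiram trends numbered 9. In cadmium 13 fell, where 12.9% of genes fell, and SNHG3 fell by 0.65 ± 0.08; without replicate 1, 7 host genes fell. In copper SNHG4 alone had a trend (-0.30 ± 0.08), where 0.407% of genes fell; copper's replicate numbers pair its libraries, and with the number as a block 7 host genes had one. In lead SNHG7 alone had a trend (-0.23 ± 0.06), where 0.152% of genes fell, and it was lost when any replicate was left out. No host gene had a trend in the other chemicals.

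Water and DMSO controls on the plate of the perfluorinated compounds differed in 4 host genes, all higher in water, where 2.3% of 19468 genes were. GAS5 had 572 to 690 CPM (median 645) in the 4 water controls and 452 to 563 (median 529) in the 12 DMSO controls. DANCR had 202 to 232 CPM against 136 to 178, by 0.41 ± 0.08 on the log2 scale (adjusted p = 6.9e-05), SNHG7 143 to 185 against 116 to 145, and NOP56 226 to 254 against 184 to 231. GAS5 and DANCR did not overlap between the solvents. The summed markers of other cells, mostly DCN, did not overlap either, at 79.97 to 111.4 CPM in water and 44.39 to 69.27 CPM in DMSO. Their part in the difference was not tested.

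The machinery around the host genes was read from lists of genes that act with them. The counts of each list are to be set against the shares of all genes tested, 18.3% lower and 21.4% higher in arsenic, 15.8% and 15% in thiram, and 14.3% and 11.2% in cadmium. In arsenic 5 of 7 snoRNA particle proteins fell and none rose (median -0.69), DKC1, the pseudouridine synthase of H/ACA particles, from 158 ± 12.9 (SD, n = 15) to 41.3 ± 5.73 CPM (n = 4). Of 9 assembly factors 6 fell (median -0.77), led by the helicases RUVBL1 (log2 -2.49 ± 0.10) and RUVBL2 (log2 -1.28 ± 0.07). FBL, the methyltransferase of C/D particles, fell by 1.18 ± 0.10 on the log2 scale. Of 12 RNA polymerase I genes 7 fell and 1 rose (median -0.45), POLR1B and POLR1C most clearly by p (log2 -2.42 ± 0.18 and -2.03 ± 0.15). In thiram, 3 of the 7 particle proteins fell and 2 rose (median 0.05), with DKC1 at log2 -0.80 ± 0.08 and NHP2 at -0.74 ± 0.10; 4 of 9 assembly factors fell and 1 rose (median -0.22), NOLC1 (log2 -0.97 ± 0.08) and RUVBL2 (-0.94 ± 0.09) among them; and 4 of 12 polymerase I genes fell (median -0.11).

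Among other protein-coding genes with snoRNAs in their introns, 11 of 21 fell and 5 rose in arsenic (median -0.40), with RCC1 and NCL, a nucleolar protein, at log2 -1.996 ± 0.15 and -1.78 ± 0.13. SNHG3 shares exons with RCC1, and the files do not say how reads in shared stretches were given. In thiram 6 of these 21 fell and 5 rose (median -0.11), with EIF4A2 at log2 2.02 ± 0.07 and SF3B3 at -0.75 ± 0.10. Ribosomal protein genes, most of which have a TOP start, fell in arsenic in 37 of 85 cases and rose in 1 (median -0.39), with 21 falling under RLE scaling and 20 under DESeq2, and the paralogs RPL22L1 and RPL7L1 led by p (log2 -1.76 ± 0.13 and -0.93 ± 0.09). In thiram 44 of 85 rose and 4 fell (median 0.26), RPL32 by 0.60 ± 0.09, while RPL7L1 fell by 0.77 ± 0.10. In cadmium 41 rose and 3 fell (median 0.57), with 55 rising under RLE scaling. Of 13 other translation genes with a TOP start, 6 fell and 2 rose in arsenic (median -0.08, and 0.05 under RLE and DESeq2), with HNRNPA1 at log2 -1.23 ± 0.10 and NPM1 at -0.73 ± 0.09. In thiram 5 rose and 2 fell (median 0.19), with EEF1D at log2 0.67 ± 0.08 and EIF4B at -0.59 ± 0.09. EEF2, EEF1B2 and TPT1 are in both of these lists of snoRNA hosts and TOP genes, and RPSA is a host and a ribosomal protein gene.

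For decay, the RNA levels of its factors and of known substrates were listed, and no rate of decay was measured. Of 20 factors of nonsense-mediated and 5′ to 3′ decay, 8 rose and 3 fell in arsenic (median 0.30), with the decapping protein DCP1A at log2 0.85 ± 0.14 and the exon junction protein RNPS1 at -0.72 ± 0.08. The same counts, 8 and 3, were found in thiram (median 0.18), with EIF4A3, a core of the exon junction complex, at log2 1.04 ± 0.08 and DCP1A at 1.02 ± 0.14. Of 11 messenger RNAs described as decay substrates, 10 rose and TBL2 fell in each, though under RLE scaling none fell in arsenic (TBL2 is named after its values were seen; medians 2.47 in arsenic and 3.16 in thiram). TRIB3 rose by 2.47 ± 0.08 and SESN2 by 4.27 ± 0.17 in arsenic, and GADD45B rose by 4.15 ± 0.12 and TRIB3 by 2.43 ± 0.10 in thiram. Most of these substrates are known also as targets of the stress factor ATF4, and these lists were chosen with results of these data known. In cadmium 8 of 11 rose (median 2.38), in copper 4 and in lead 2, and in DDE and MPB edgeR called none.

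**Figure D5:**
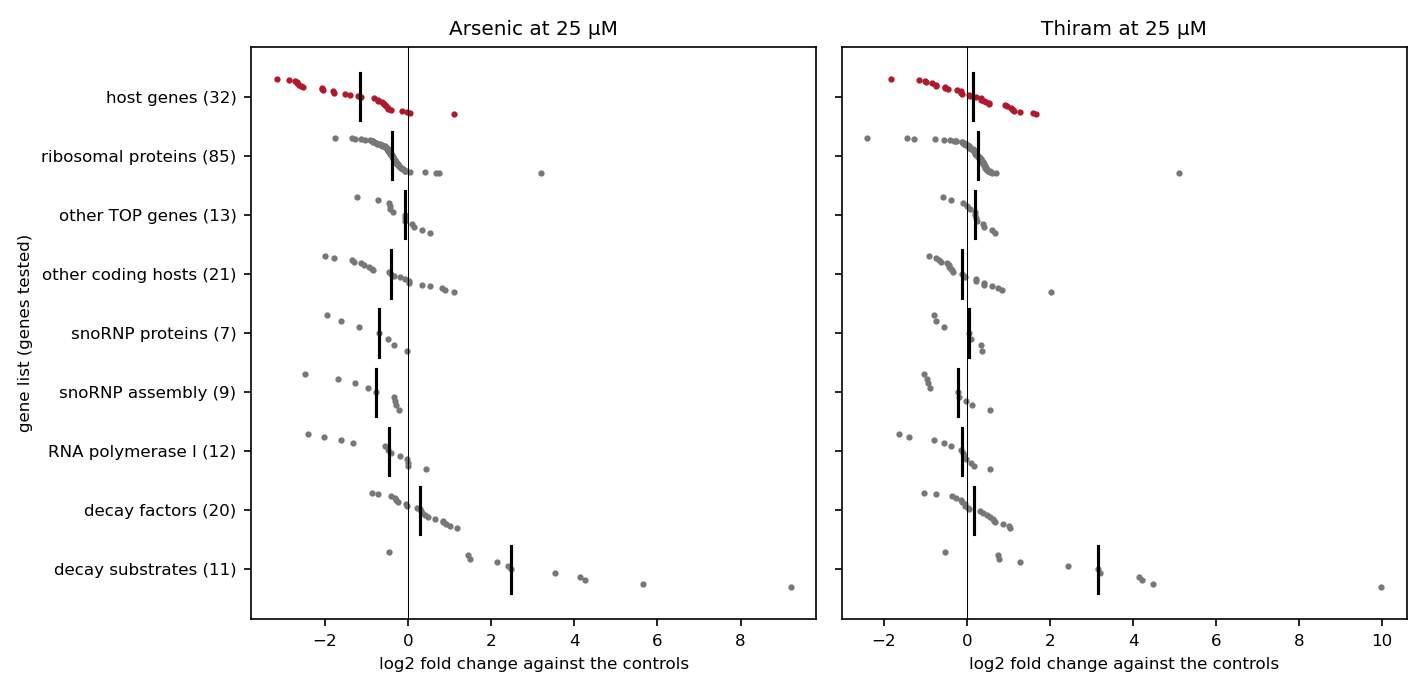
Log2 fold change at 25 µM against the controls for each tested gene of 9 lists (points; number of genes in brackets) in arsenic (left) and thiram (right), with black bars at the list medians. In arsenic the host genes (red) have a median of -1.17 and the decay substrates one of 2.47, and in thiram 0.14 and 3.16.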

How the data were processed

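RNA of MCF10A wells was read as 402 plexWell libraries, of which 333 were dosed and 69 were controls. The deposited values are raw counts of reads per gene symbol. FastQC, MultiQC, STAR, featureCounts and GRCh38 are named in the submitters' processing notes; no source used here gives their versions, the strand setting or the annotation. Groups came from the treatment labels and plates from the barcode, which put the 8 controls labelled with another plate beside DDE and left out 1 cadmium library. Host genes, gene lists and tests were chosen with earlier results of these data known.

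Each plate was fitted alone with edgeR 4.0.16 in R 4.3.3: a filter by group (minimum count 10, total 15), TMM scaling, a trended dispersion, the quasi-likelihood test and Benjamini-Hochberg adjustment over all genes tested, called at an adjusted p under 0.05. The form of the dispersion was chosen after a test on simulated data. These were drawn around a dispersion trend taken from the metal plate, so that test cannot decide between a trend and a common dispersion. CPM are counts per M of TMM-scaled library size. Dose trends are linear over the logarithm of dose. Totals of the libraries compared ran from 1.43 to 25.8 M counts, and intervals and limits cover counting error only. The limit for 0 counts was 3 counts over the group.

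Named are the 7 host genes listed by symbol, the 3 highest and 3 lowest called host genes per chemical with many calls, every call elsewhere, the highest and the lowest host gene in the controls, and the 2 called genes with the smallest p in each other list; others are named to account for all members. Alternatives were RLE scaling, no filter, a library-number term, the lower-numbered and the higher-numbered libraries alone, leaving out each replicate, DESeq2 1.42.0, a replicate block for trends, the left-out cadmium library added, and 1 common dispersion, chosen after seeing the data. Same-numbered replicates were taken to pair the libraries where r was above 0.1 in every pair. This held in copper (lowest r = 0.18), lead (0.40), mercury (0.36) and PFOA (0.26) alone. The next highest value was 0.042 in DCB_14.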

Additional observations from a re-analysis of the deposited data

Results flagged for a closer look

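In 4 of 55 groups of 4 libraries, 1 library lay far from the others; chance flags about 1 in 20 groups. SNHG9 stood at 1.44 CPM in the second arsenic library, with the others from 0 to 0.107. EPB41L4A-AS1 stood at 19.5 CPM in the third arsenic library, with the others from 24.0 to 24.6, and at 88.6 CPM in the fourth thiram library. SNHG5 stood at 188 CPM in the third MPB library.

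The test of arsenic against cadmium at 25 µM, with 2 cadmium libraries, found 11 host genes to differ. On the log2 scale arsenic minus cadmium was -2.88 for SNHG19, -2.77 for SNHG4, -2.59 for SNHG21, -1.78 for SNHG10, -1.41 for SNHG15 and -1.15 for SNHG3. It was -0.98 for DANCR, -0.84 for SNHG29, -0.62 for RACK1, -0.62 for SNHG16 and 2.54 for EPB41L4A-AS1.

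The library labelled cadmium 25 µM that carries another plate's barcode, outside all comparisons, had 1.28 M counts and 9.987% mitochondrial counts. In it 9 host genes were above the range of the water controls of the metal plate, whose CPM are TMM-scaled, 2 were below and 21 were within. Those above, in CPM of its unscaled total, were NOP56 (284.9), SNHG3 (168.9), TAF1D (109), SNHG6 (66.17), SNHG12 (62.28), SNHG26 (47.49), SNHG32 (46.71), SNHG14 (36.59) and SNHG21 (11.68). Its barcode is that of the thiram plate, where the controls ranged from 72.4 to 182 CPM for SNHG3. They ranged from 54.1 to 123 for TAF1D and from 24.9 to 52.2 for SNHG26, so these 3 lay within. NOP56, SNHG6, SNHG12, SNHG32, SNHG14 and SNHG21 were above the controls of that plate too.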

How the results depend on the processing

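No host gene call changed sign in any alternative. Numbers of host genes called in arsenic and thiram stayed within 1.5 times in every alternative at 25 µM. With a common dispersion, calls numbered 5 in cadmium, 4 in copper, 4 in lead, 6 at 2.5 µM and 4 for arsenic against cadmium, and trends 6 in cadmium, 2 in copper and 2 in lead. With a library-number term there were 6 calls in copper, 5 in lead and 5 at 2.5 µM, and 6 trends in copper. The lower-numbered libraries alone gave 9 in copper, 4 in lead, 3 in the other 14 chemicals, and 9, 14 and 25 at 2.5, 0.25 and 0.025 µM. The higher-numbered libraries alone gave 0 in copper, 0 in MPB, 6 in the other 14, and 14, 1 and 4 at those doses. DESeq2 gave 4 in copper, 4 in lead, and 6, 5 and 1 at those doses. Without a filter there were 2 calls in the other 14, and 9, 5 and 3 at those doses. With the left-out cadmium library added, 6 host genes were lower in cadmium. The cause of these shifts was not tested.

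Leaving out 1 replicate gave 7 to 12 lower in cadmium, 0 to 2 in copper, 1 to 2 in lead, 0 to 4 in DDE, 0 to 7 in MPB, and 0 to 1 in the other 14. It gave 0 to 8 at 2.5 µM, 0 to 0 at 0.25 µM and 0 to 4 at 0.025 µM. Trends numbered 9 to 15 in thiram, 7 to 13 in cadmium, 0 to 1 in copper and 0 to 0 in lead. Where 1 cadmium library remained, it was assumed to vary like the other groups. With the replicate number as a block, trends numbered 7 in copper, 1 in lead, 23 in arsenic, 16 in thiram and 14 in cadmium, and arsenic against cadmium gave 7; the numbers were taken to pair only copper and lead among these.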
